A study of Rattus norvegicus with 22 samples.

Results

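The 8 genes described here, Mbp, Pmp22, Prx, Mag, Sox10, Ncam1, Ngfr and Cnp, are genes of Schwann cells and peripheral nerve. They were chosen by symbol, as the array design spells it, and each was read from its brightest probe among 30367 probes and 17594 gene symbols. All 8 were on the array. The samples were 11 pairs of oral squamous cell carcinoma (OSCC) and adjacent, phenotypically normal tongue tissue. Each pair came from 1 male F344 rat that drank water with 20 ppm of the carcinogen 4-NQO over 10 weeks and was harvested 23 to 26 weeks after exposure began, at an age of about 33 weeks. The normal pieces, although labelled as having no treatment, thus came from rats that had drunk the carcinogen as well, and no tissue from a rat without 4-NQO was analysed. The titles of all 22 arrays carry the word untreated, and the grouping followed the tissue label. Each sample was hybridised to 1 one-color rat array, and values are log2 signals relative to the 75th percentile of the same array. A positive difference means a higher level in OSCC than in the normal piece of the same rat.

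Schwann cells wrap peripheral axons. Myelinating Schwann cells build compact myelin from a small set of structural proteins, whose genes are driven by the transcription factors Sox10 and Egr2. Non-myelinating Schwann cells hold several thin axons and carry adhesion molecules and the low-affinity neurotrophin receptor instead. The tongue is densely innervated, and its nerves run through the muscle and the connective tissue under the epithelium. In whole pieces of tissue, fewer cells of a type and less RNA per cell cannot be told apart.

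The probes are 60 bases long and lie at the positions given here in the rat genome build rn4, as the array files annotate them. Gene models of that build were not used, so exon and untranslated region are not stated. For the 8 genes, 30 bases of each probe are shown because 2 genes have a second probe that behaved differently from the first. By their positions the probes of these 2 genes do not overlap. Capitals mark the first match in each probe to the letters AATAAA or ATTAAA, the usual polyadenylation signal hexamers, which 11.2% of all probes hold on the probe strand.
Mbp, brighter probe, chr18:79057264-79057323, plus strand: cttggatattgaAATAAAataataaacttg
Mbp, dimmer probe, chr18:79026442-79026501, plus strand: aatatcctgtgaATTAAAatgtatcagaag
Pmp22, chr10:49335537-49335596, plus strand: tgttattactacAATAAAtaaatctcaaag
Prx, chr1:82597427-82597486, plus strand: catctcattgcctgacgtagaactcacatc
Mag, brighter probe, chr1:85954601-85954660, minus strand: aaaagggacatgaAATAAAtgtcctaatga
Mag, dimmer probe, chr1:85954517-85954576, minus strand: ttggaggaaaggggcatattagtaatactt
Sox10, chr7:117138840-117138899, minus strand: cagcgatatcttAATAAAgtacgtagctct
Ncam1, chr8:52822367-52822426, minus strand: cctgaaaccatttaaaaatcaaacaaaagg
Ngfr, chr10:84263082-84263141, minus strand: gagaccaggagcattgtacgcatacgcggg
Cnp, chr10:89524880-89524939, plus strand: gcaaagggcgttggatgctgagcttggcga
The 2 Mbp probes are 30762 bases apart and are assigned to different transcripts in the array files. The 2 Mag probes are separated by 24 bases, and on the minus strand the dimmer one lies beyond the hexamer of the brighter one.

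Most of these genes fell in OSCC and none was called higher. A call needed an adjusted p below 0.05 in limma and a change of at least 2-fold. Lower calls were made for 5 of 8, against 6.97% of all 30367 probes and 7.37% of the gene symbols. The 5 were Mbp, Pmp22, Prx, Mag and Ngfr. Of the 8, 0 were called higher, against 6.86% of all probes and 7.72% of the gene symbols. At an unadjusted p below 0.05 there was 1, Ncam1, higher in 10 of 11 pairs. Its limma adjusted p was 0.027, but its change was under 2-fold. The paired t-test with adjustment called 0 of the 8 higher as well, against 6.52% of all probes. Sox10, Ncam1 and Cnp were not called. In none of the 8 genes were the ranges of the tissues apart, as they were for 1.65% of all probes. Each of the 5 genes that fell was lower in 10 of 11 pairs, which was true of 11.9% of all probes (10 or 11 pairs). The median difference of all probes was -0.24, so the array as a whole sat slightly below 0.

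**Figure D1:**
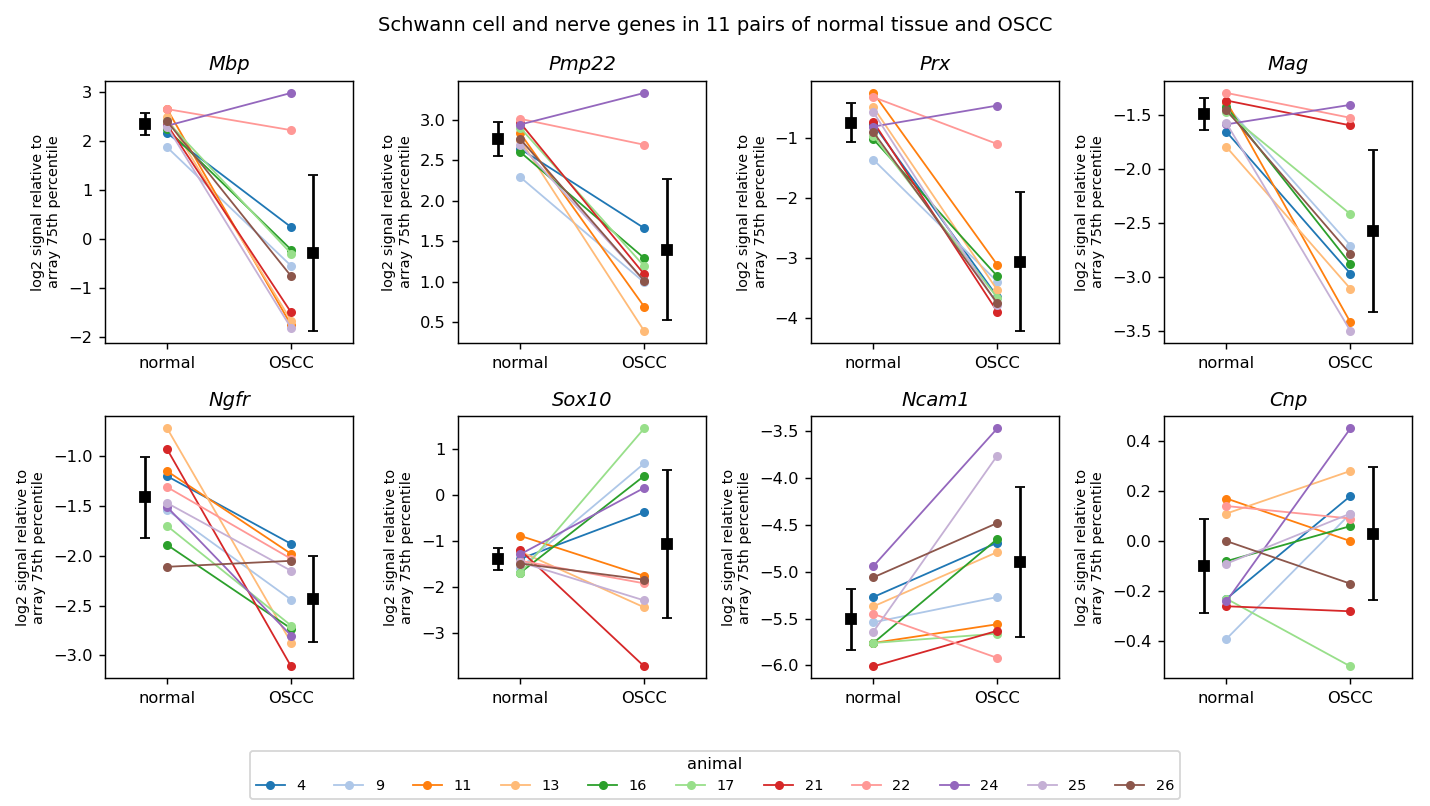
Log2 signal relative to the array's 75th percentile (y axis) of the 8 genes in the normal piece and the OSCC of each of 11 animals (lines, 1 colour per animal); black squares and bars are the mean and SD of 11 arrays. Mbp, Pmp22, Prx and Mag fell in 10 of 11 animals with animal 24 the exception, and Sox10 spread in both directions in OSCC.

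Mbp had the largest mean difference of the 8 genes over the 11 pairs by brightest probe, while in the 2 pairs scanned on 1 day Prx, at -2.45, exceeded Mbp, at -2.17. Myelin basic protein holds the cytoplasmic faces of the myelin membrane together. In normal tissue the Mbp signal ran from 1.87 to 2.65 with a median of 2.33. In OSCC it ran from -1.82 to 2.98 with a median of -0.55. The normal pieces lay close together, whereas the OSCC samples spread widely, and the OSCC of animals 22 and 24 reached the normal level, so the tissues overlapped. The mean difference was -2.63 (SE 0.44, n = 11 pairs), a 6.19-fold lower level in OSCC with a limma adjusted p of 0.00099.

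Pmp22 encodes a membrane protein of compact peripheral myelin that other cells also make. The normal pieces had signals of 2.29 to 3.01, median 2.76, and the OSCC samples 0.39 to 3.33, median 1.09. All normal pieces were within a narrow band, and again only the OSCC of animals 22 and 24 lay inside or above it. The difference was -1.37 (SE 0.23), or 2.58-fold lower, with a limma adjusted p of 0.0011.

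Prx encodes periaxin, which ties the myelin sheath to the Schwann cell's outer membrane and basal lamina. Its signal was -1.36 to -0.25 in normal tissue, median -0.77, and -3.89 to -0.46 in OSCC, median -3.53. Of the OSCC arrays, 9 formed a tight group far below every normal array. Those of animals 22 and 24, at -1.10 and -0.46, stayed within the normal range. The Prx difference was -2.31 (SE 0.31), a 4.96-fold lower level, with a limma adjusted p of 0.00037, and 9 of 11 OSCC arrays against 11 of 11 normal arrays were well above background. Under normexp it was -1.12 with an adjusted p of 0.031, still called.

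Mag encodes the myelin-associated glycoprotein, an adhesion molecule of the membrane that faces the axon. Its signal was -1.80 to -1.30 in normal tissue, median -1.46, and -3.50 to -1.41 in OSCC, median -2.79. The OSCC samples of animals 21, 22 and 24 lay inside the normal range and the other 8 lay below it. The difference was -1.08 (SE 0.21), 2.11-fold lower, with a limma adjusted p of 0.002. That is close to the 2-fold limit: without the pair of animal 11 it was -0.98, it also missed the limit without that of animal 25, and with normexp background correction it was -0.53 with an adjusted p of 0.2.

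Ngfr encodes the low-affinity neurotrophin receptor, carried by non-myelinating and immature Schwann cells and also by basal cells of oral epithelium. Its signal was -2.11 to -0.72 in normal tissue, median -1.47, and -3.11 to -1.88 in OSCC, median -2.44. The tissues overlapped, but the animals behaved differently than for Mbp, Pmp22, Prx and Mag. Animal 24 fell by 1.29 and animal 22 fell by 0.73, and the exception was animal 26, at 0.06. The Ngfr difference was -1.02 (SE 0.19), 2.03-fold lower, with a limma adjusted p of 0.0019, just past the 2-fold limit. It was -0.91, -0.90 and -0.99 without the pair of animal 13, 21 or 24, and -0.49 with an adjusted p of 0.2 under normexp, and was not called in any of these.

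Markers of basal keratinocytes were set beside Ngfr. Of these 6 genes, 1 was called lower (Krt15, -2.54, lower in 11 of 11 pairs) and 1 higher (Itga6, 1.77), with a median of -0.20. The mean log2 level of the list was 3.53 to 4.25 in normal tissue and 1.27 to 4.53 in OSCC. The part of these cells in the fall of Ngfr was not tested.

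Sox10 is the transcription factor that directs the Schwann cell lineage from neural crest onwards. Its mean did not fall as those of Mbp, Pmp22, Prx and Mag did. Its signal was -1.70 to -0.89 in normal tissue, median -1.43. In OSCC it was -3.72 to 1.44, median -1.76. The OSCC arrays lay on both sides of the normal ones, with 5 animals higher and 6 lower. The mean difference was 0.33 (SE 0.48) with a limma adjusted p of 0.57, and single animals ranged from -2.51 in animal 21 to 3.13 in animal 17. It was 0.05 without the pair of animal 17 and 0.62 without that of animal 21, and 1.64 in the 2 pairs scanned on 1 day. The Sox10 probe was well above background on 10 of 11 OSCC arrays. The exception was that of animal 21, so the size of the fall in this animal is uncertain.

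Mbp was lower in 10 of 11 animals, among them 4 of the 5 in which Sox10 was higher. In animal 17 Sox10 differed by 3.13 and Mbp by -2.70. In animal 9 the values were 2.26 and -2.41, and in animal 16 they were 2.09 and -2.46. Animal 4 had 1.01 for Sox10 and -1.92 for Mbp, and animal 24 had 1.43 and 0.67. Where Sox10 was lower, Mbp differed by -0.44 in animal 22. In animals 11, 13, 21, 25 and 26 Mbp differed by -4.41 to -3.16. Sox10 is also made by acinar and myoepithelial cells of salivary glands, and of 10 salivary gland markers on the array 9 were called higher in OSCC and 0 lower, with a median difference of 5.88. The mean log2 level of these markers was -5.28 to -3.73 in normal tissue and -3.28 to 6.02 in OSCC. In the 5 animals with Sox10 higher in OSCC the mean gland difference was 7.73 to 10.55. In the 6 with Sox10 lower it was 0.78 to 4.63. Of the gland markers, Aqp5, Bhlha15, Muc19, Prb1 and the gene listed as LOC171161 were above background on none of the normal arrays. The part of gland tissue in the Sox10 values was not tested.

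**Figure D2:**
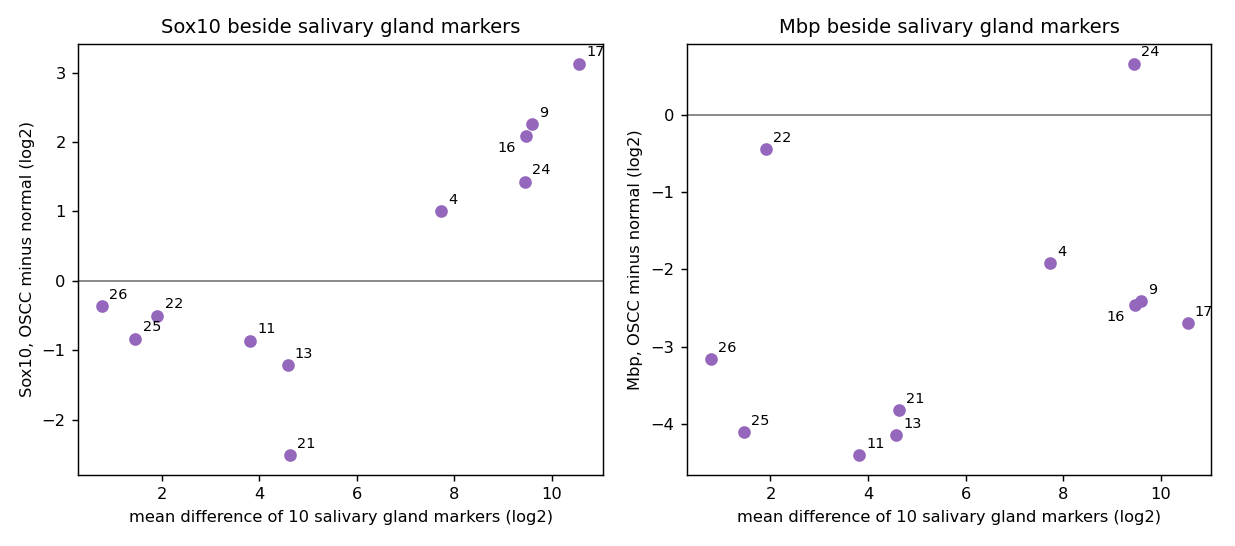
Within-animal log2 difference of Sox10 (left, y axis) and of Mbp (right, y axis) against the mean log2 difference of 10 salivary gland markers (x axis); each point is 1 of 11 animals, numbered. The 5 animals above 0 for Sox10 are those with gland differences of 7.73 or more, whereas Mbp lies below 0 in 10 of 11 animals on both sides of that value.

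Cnp encodes a phosphodiesterase of non-compact myelin that many other cells also contain. Its signal was -0.39 to 0.17 in normal tissue, median -0.09, and -0.50 to 0.45 in OSCC, median 0.09. The ranges overlapped almost entirely, with 6 pairs higher and 5 lower. The Cnp difference was 0.13 (SE 0.11) with a limma adjusted p of 0.35, and its sign turned to -0.07 when arrays were scaled to their median.

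Ncam1, the neural cell adhesion molecule, is carried by non-myelinating Schwann cells, axons and muscle fibres that have lost their nerve. Its probe cleared background on none of the normal arrays and on 3 of 11 OSCC arrays, those of animals 4, 24 and 25. Its signal was -6.01 to -4.94 in normal tissue, median -5.54, and -5.92 to -3.47 in OSCC, median -4.79. The mean difference was 0.61 (SE 0.19) with a limma adjusted p of 0.027, under 2-fold, and it was -0.05 under normexp. No fold is given because the OSCC mean lay below the floor set by background.

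The second probes of Mbp and Mag gave other results than the first. The dimmer Mbp probe was well above background on all 22 arrays. Its signal was -3.20 to -1.69 in normal tissue, median -2.44, and -2.95 to -1.16 in OSCC, median -1.91. It was higher in OSCC in 7 of 11 pairs, with a difference of 0.42 (SE 0.17) and a limma adjusted p of 0.054. The array files assign it to transcript NM_001025289 and the brighter probe to NM_001025291, and which isoforms each detects was not checked. Averaging both probes gave -1.10 for Mbp. The dimmer Mag probe cleared background on none of the 22 arrays, and its difference of -0.71 (SE 0.21, limma adjusted p 0.02) therefore carries no level. Averaging both probes gave -0.90 for Mag, which was not called. The other 6 genes have 1 probe each.

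**Figure D3:**
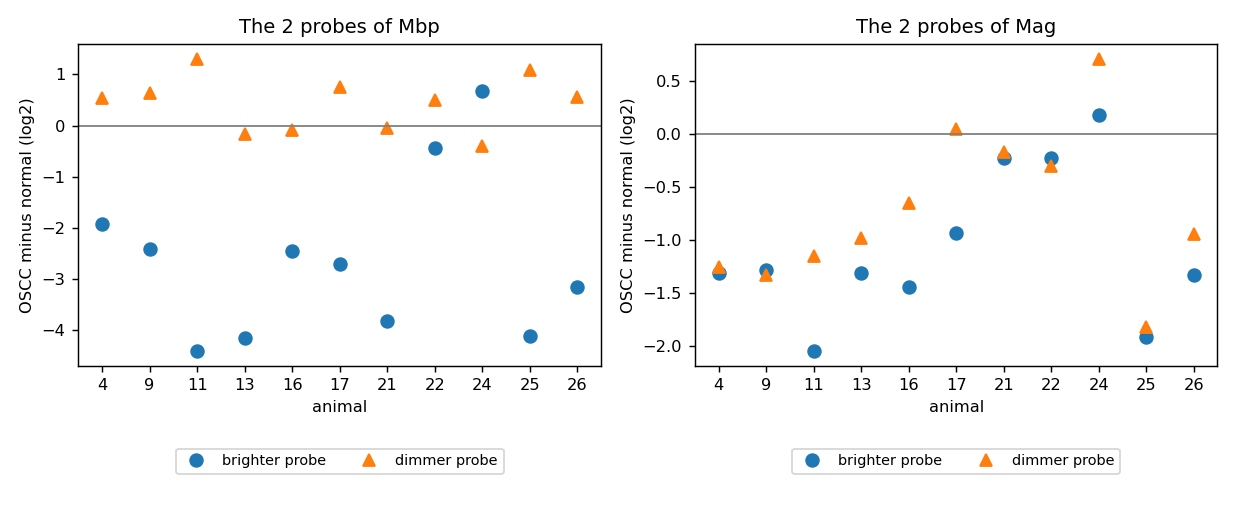
Within-animal log2 difference, OSCC minus normal (y axis), of the brighter probe (circles) and the dimmer probe (triangles) of Mbp (left) and Mag (right) in 11 animals (x axis). The dimmer Mbp probe lies between -0.41 and 1.31 while the brighter one reaches -4.41; the dimmer Mag probe was at background on all arrays.

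Mbp and Pmp22 moved together from animal to animal. Their within-animal differences had a Pearson r of 0.97 and a Spearman rho of 0.94 over 11 rats. The permutation p for r was 1e-05, the smallest that 100000 permutations can give, and 0.00052 after adjustment over 52 relations, and that for rho was 8e-05 and 0.0042. Without animals 22 and 24, the farthest from the median of Mbp, r was 0.88. Among the 9 pairs whose arrays were scanned on different days r was 0.97 with an exact permutation p of 0.00022, and the other 2 pairs were too few. Mbp and Sox10 had an r of 0.46 (permutation p = 0.16, adjusted 0.38) and a rho of 0.61 (0.053, adjusted 0.18), and r was 0.78 without the same 2 animals. In the 9 pairs scanned on different days it was 0.46 with an exact permutation p of 0.21. For 42 of the 52 relations, each of which involved Prx, Mag, Ngfr or a list mean, the rats fell into separate groups on at least 1 axis, and no pooled value is given.

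**Figure D4:**
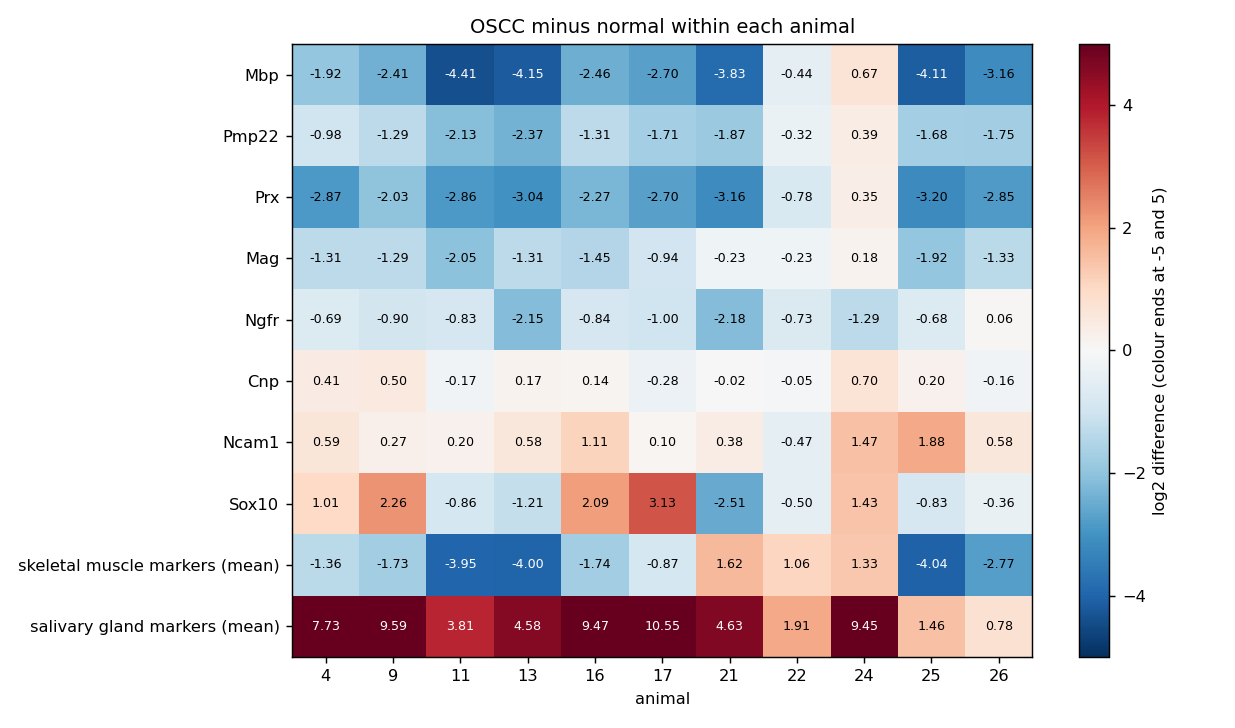
Log2 difference, OSCC minus normal, of 8 Schwann cell and nerve genes and of the mean of 14 skeletal muscle and 10 salivary gland markers (rows) in 11 animals (columns); numbers are the differences and colours run from -5 to 5. Animals 22 and 24 lie between -0.78 and 0.67 for Mbp, Pmp22, Prx and Mag. Animals 21, 22 and 24 are the ones with a mean of the muscle markers above 0, which Actn3 and Myh2 can raise.

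Animals 22 and 24 were the exceptions for Mbp, Pmp22, Prx and Mag. In animal 24 the differences were 0.67 for Mbp, 0.39 for Pmp22, 0.35 for Prx and 0.18 for Mag. In animal 22 they were -0.44, -0.32, -0.78 and -0.23 in the same order. Animal 21 was split, with -3.83 for Mbp and -3.16 for Prx but -0.23 for Mag. Without the pairs of these 3 animals, which the study names as variable, the differences were -3.16 for Mbp, -1.65 for Pmp22, -2.73 for Prx and -1.45 for Mag, each still called, and -0.88 for Ngfr, which was not.

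RNA of skeletal muscle markers varied between the pieces as well. Of 14 skeletal muscle markers 10 were called lower and 1 higher (Myh2, 2.17), with a median of -1.94, and their mean log2 level was 5.54 to 6.98 in normal tissue and 1.54 to 7.64 in OSCC. The mean muscle difference was 1.62 in animal 21, 1.06 in animal 22 and 1.33 in animal 24. It was between -4.04 and -0.87 in the other 8. Among the 14 markers the largest rise in a single pair was 8.83 for Actn3 and 7.60 for Myh2. For the rest it ran from 0.19 for Mb to 2.73 for Myh1. Actn3 and Myh2 can thus raise the mean above most of the markers. Markers of oligodendrocytes, the myelinating cells of the brain, were at or near background: 3 of 5 cleared it on no array, and none was called. Of the connective tissue and immune markers, 5 of 6 fibroblast, 5 of 6 macrophage and 3 of 5 T cell genes were called higher and 0 of 6 endothelial genes were called. The part of muscle in the fall of Mbp, Pmp22, Prx and Mag was not tested.

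Arrays of the tissues also differed technically. Normal samples were on 3 slides and OSCC samples on 4 others, so no slide held both tissues; with slide as a random block 4 of the 8 genes were called lower, and Ngfr at -0.98 was not. All normal arrays and the OSCC arrays of animals 4 and 9 shared 1 scan day, and the OSCC arrays of the other 9 animals were scanned on a second. In the 2 pairs scanned together Mbp differed by -1.92 and -2.41, Pmp22 by -0.98 and -1.29, Prx by -2.87 and -2.03, Mag by -1.31 and -1.29, and Ngfr by -0.69 and -0.90. With scan day as a term the fit rests on those 2 pairs for the tissue effect, and 0 of the 8 genes, like 0.00988% of all probes, were called. The 75th percentile signal of the arrays was 236.8 to 654.9 in normal tissue and 338.7 to 1414 in OSCC.

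Over the 7 lists of related genes 107 were on the array, of which 29 were called lower and 6 higher. Of all gene symbols 7.37% were called lower, 7.72% higher and 15.1% in either direction. These shares are the background for each list below. Among the other myelin genes, 12 of 14 listed were on the array, 6 were called lower, 1 higher and 5 not called, with a median of -0.87 against -0.21 over all gene symbols. Cldn19, a claudin of Schwann cell junctions, differed by -2.87 (SE 0.43, limma adjusted p 0.00063), and Pllp, a myelin membrane protein, by -1.77 (SE 0.41, limma adjusted p 0.0056). Both were called lower, with 4 and 7 of 11 OSCC arrays above background. Cadm4, an adhesion molecule with which Schwann cells hold the axon, was called higher at 1.28, in 11 of 11 pairs, with 3 normal and 10 OSCC arrays above background. Gjb1, a connexin of non-compact myelin, differed by 1.17 with a limma adjusted p of 0.1.

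**Figure D5:**
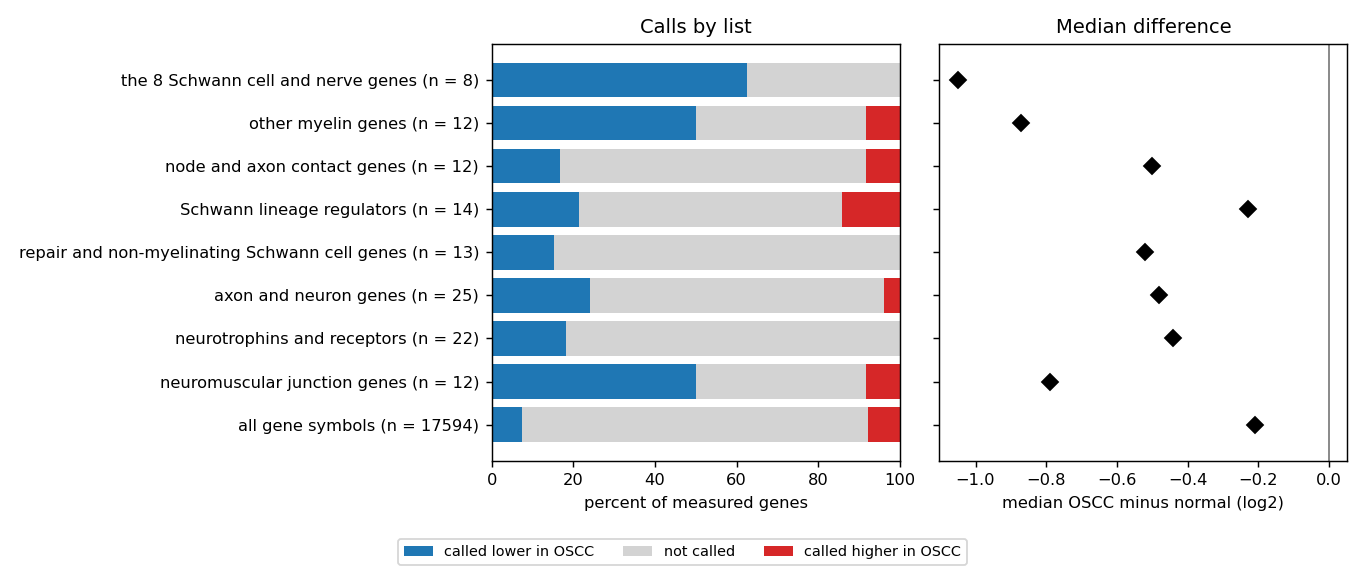
Left, percent of measured genes (x axis) called lower (blue), not called (grey) and called higher (red) in OSCC for the 8 genes, 7 lists of related genes and all gene symbols (rows); right, the median log2 difference, OSCC minus normal (x axis), of the same rows. The 8 genes and the other myelin genes have medians of -1.05 and -0.87 against -0.21 for all gene symbols.

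At the node of Ranvier and along the axon contact, 2 of 12 measured genes were called lower and 1 higher, with a median of -0.50. Kcna1, a potassium channel of the region beside the node, differed by -3.09 (limma adjusted p 0.00078) and was lower in 10 of 11 pairs, but it cleared background on 4 of 11 OSCC arrays, so the size of the fall is uncertain. Cntnap1, which anchors the paranodal junction, fell by 1.21 and was lower in 11 of 11. Its partner Cntn1 differed by 1.51 and was called higher, but it cleared background on 0 normal arrays and on 5 OSCC arrays, and no fold is given.

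The regulators of the lineage were mixed. Of 14 measured genes 3 were called lower and 2 higher, with a median of -0.23. S100b, a calcium-binding protein used as a Schwann cell marker, fell by 1.53, Sox8, a relative of Sox10, by 1.18, and Cdh19, a cadherin of Schwann cell precursors, by 1.06. Cdh19 was well above background on 2 arrays of each tissue and Sox8 on 7 normal and 4 OSCC arrays. Nrg1, the axonal growth factor of Schwann cells that epithelial and stromal cells make too, rose by 1.90 (SE 0.44) in 10 of 11 pairs, and Nab1, a cofactor of Egr2, rose by 1.09 in 11 of 11. Egr2 itself, the factor that switches on myelin genes, differed by -0.26 (SE 0.31, limma adjusted p 0.5).

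Of 13 measured genes of repair and non-myelinating Schwann cells 2 were called lower and 0 higher, against 7.37% and 7.72% of all gene symbols. Their median was -0.52. Scn7a, a sodium channel of non-myelinating Schwann cells, fell by 1.96 (3.90-fold) in 10 of 11 pairs. Olig1, a transcription factor listed here for its induction in repair cells, cleared background on 3 normal arrays and no OSCC array, and was at least 1.33-fold lower (limma adjusted p 5.9e-05). On no array did 4 of the 13 clear background, and the median of those that cleared it on at least 1 array was -0.03.

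Of 25 measured axon and neuron genes 6 were called lower and 1 higher, with a median of -0.48, and 9 cleared background on no array. The median of those that cleared it on at least 1 array was -0.36. Scg2, called lower at -1.24, cleared it on no array, so its difference carries no level. Snap25, also called lower, cleared it on 3 normal arrays and no OSCC array. Prph, the intermediate filament of peripheral neurons, fell by 1.43, was lower in 8 of 11 pairs and cleared background on all arrays. Dbh, the enzyme that makes noradrenaline, differed by -1.78 but cleared background on 5 normal and 2 OSCC arrays. Vip, a peptide of parasympathetic nerves, differed by -1.62, was lower in 8 of 11 pairs and cleared background on 10 normal and 6 OSCC arrays. Tac1, the gene of substance P, differed by 1.25 and was called higher, and cleared background on 0 normal arrays and on 8 OSCC arrays. No fold is given for it.

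Of 22 measured neurotrophins and receptors 4 were called lower and 0 higher, against 7.37% and 7.72% of all gene symbols. Their median was -0.44. Pspn, a ligand of the GDNF family, differed by -3.42 (SE 0.56, limma adjusted p 0.00088) and was lower in all pairs but that of animal 22, with 5 of 11 OSCC arrays above background. Nrtn of the same family fell by 1.22 in 11 of 11 pairs, and Ntf3, a neurotrophin that cleared background on 6 OSCC arrays, fell by 1.19 and was lower in 9. Ntrk2, the receptor of brain-derived neurotrophic factor, differed by -0.96, under 2-fold.

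Of 12 measured genes of the neuromuscular junction 6 were called lower and 1 higher, with a median of -0.79. Muscle fibres make many of these genes, and 10 of 14 muscle markers were called lower, with a median of -1.94. In animals 21, 22 and 24 the mean muscle difference, which Actn3 and Myh2 can raise, was 1.62, 1.06 and 1.33. The mean difference of the junction genes there was -0.96, 0.35 and -0.16. In all other animals both means were negative. The part of muscle was not tested here either. Colq, which anchors acetylcholinesterase in the synapse, fell by 2.66, with 5 of 11 OSCC arrays above background, Lrp4, the agrin receptor, by 1.74, and Ache, the esterase, by 1.52, each in 11 of 11 pairs. Chrng, the subunit of the fetal acetylcholine receptor, cleared background on 8 OSCC arrays and no normal array, and was at least 1.41-fold higher (limma adjusted p 0.00054). Its adult counterpart Chrne fell by 1.37 in 11 of 11 pairs.

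Among the 5 genes whose within-animal differences were most like those of Mbp, of 8888 others well above background on all 22 arrays, were LOC689826 and Aatk with an r of 0.98 and Pmp22 with 0.97, each over 11 rats and as a description. For Sox10 the 5 were Wdr25l with 0.96, Nelf and Mme with 0.95, and Capn8 and Rasal1 with 0.94, among 8889. Wdr25l and Rasal1 were called higher in OSCC, at 2.29 and 2.43, and the other 3 were not called. For these r values of Mbp and Sox10, the check for separate groups of rats was not applied.

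RefSeq promoter windows on build GRCr8, from 250 bases before to 50 after a start site, were given for 5 of the 8 genes. They were searched on both strands for ACAAAG and AACAAT, core letters that factors of the Sox family bind, and for CACGTG. Of 33469 windows 18.8% held ACAAAG, 11.7% AACAAT and 6.42% CACGTG. A match describes the letters only. Mbp has 2 windows, of which 1 holds ACAAAG once and AACAAT at 2 positions and the other holds none of the 3. The windows of Prx and Pmp22 hold none either. Those of Mag, called lower, and Cnp, not called, hold ACAAAG once and nothing else. The match lies on the printed strand in Cnp. In Mag it lies on the strand opposite to the printed one, which reads CTTTGT. The windows of Mag and Cnp are shown as 1 gene of each outcome, with the match in capitals.
Mag, chr1:95290995-95291294, minus strand: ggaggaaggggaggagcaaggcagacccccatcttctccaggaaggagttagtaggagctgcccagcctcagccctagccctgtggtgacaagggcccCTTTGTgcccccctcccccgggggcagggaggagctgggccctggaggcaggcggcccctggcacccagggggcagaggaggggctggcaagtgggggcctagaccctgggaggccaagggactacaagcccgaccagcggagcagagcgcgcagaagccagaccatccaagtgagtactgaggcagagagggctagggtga
Cnp, chr10:86011254-86011553, plus strand: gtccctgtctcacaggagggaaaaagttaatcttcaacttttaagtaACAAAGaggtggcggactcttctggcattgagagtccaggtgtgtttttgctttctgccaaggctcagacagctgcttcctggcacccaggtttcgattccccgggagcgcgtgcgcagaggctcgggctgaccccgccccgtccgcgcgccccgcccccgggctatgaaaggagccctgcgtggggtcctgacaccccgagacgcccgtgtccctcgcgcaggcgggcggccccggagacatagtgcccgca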

How the data were processed

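Intensity values of the one-color arrays were deposited as Agilent Feature Extraction 9.5.3.1 files, in which the authors' software had subtracted local background and removed spatial trends. The authors also deposited a table of the same signals as a ratio to each array's 75th percentile, and 99.97% of 229255 values at or above 0.5 matched the values used here within 2%. Clearing background means the software's well-above-background flag. Control spots and 9196 outlier spots (0.975%) were left out, each probe took the mean log2 signal of its spots, and every array was set to its own 75th percentile over probes. The tissues were compared in limma 3.58.1 (R 4.3.3), in a model of rat plus tissue that had been tested on simulated data. Benjamini-Hochberg adjustment covered all 30367 probes. The pairing comes from both tissues being taken from 1 rat; deviations of same-rat arrays from their tissue means correlated between -0.21 and 0.24. The number of arrays limits the precision. At-least folds set the mean of the brighter tissue against, on each dim array, the higher of the gene's own signal and the lowest signal well above background.

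The 8 genes and all lists were chosen with earlier results of these data known. Beside the 8 genes and Egr2, the text names from each list up to 3 called genes with the largest rise and fall, and others where a sentence turns on them; some genes so chosen are not reported here. Rats counted as separate groups where 1 gap exceeded 30% of the range, a rule chosen after seeing the data. Alternatives were other scalings, background correction, tests, blocks, filters and sets of pairs.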

Additional observations from a re-analysis of the deposited data

How the results depend on the processing

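Of the 8 genes, 5 called lower and 0 higher in OSCC were also the counts without the replicate block that pairs the tissues of a rat, with quantile, median or deposited scaling, with the paired t-test and with outlier spots kept. The count lower was 3 when the 75th percentile came from probes above background on all 22 arrays and 3 with normexp (3.34% of all probes), in both of which Mag and Ngfr were lost, and 0 with scan day as a term; it was 4 to 5 leaving out each pair in turn, and the count higher stayed at 0 there. In the 2 pairs scanned on 1 day 1 gene was called higher, Sox10 at 1.64, against 10.1% of all probes; that fit gives each of the 8 genes the same SE of 0.42, so the call does not rest on the gene's own spread. Over the 7 lists, 6 genes were higher and 29 lower. Without the replicate block they were 6 and 30, with normexp 1 and 9, with scan day as a term 0 and 1, in the pairs scanned on 1 day 12 and 48, without animals 21, 22 and 24 14 higher and 37 lower, and leaving out each pair in turn 6 to 8 and 25 to 35. The sign turned for Cnp with median scaling (-0.07) and for Ncam1 with normexp (-0.05), neither of them called. Over all probes 4201 were called, 2083 higher and 2118 lower; median scaling gave 1541 and 3154, and the total was 1701 with normexp, 3 with scan day as a term, 13265 in the pairs scanned on 1 day and 6924 without animals 21, 22 and 24. Median scaling moved the median of all probes from -0.24 to -0.44 and quantile normalization to -0.03. The scan day fit rests on 2 pairs by its construction; the cause of the other changes was not tested. Low signal over background limits Ncam1, and Ncam1 has no value under the filter of 6 arrays above background.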

Other observations

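Melanocytes, a neural crest lineage that also depends on Sox10, were represented by 7 markers. Dct, an enzyme of melanin synthesis, was lower in OSCC (difference -2.85, SE 0.36, limma adjusted p 0.00027) in 11 of 11 pairs and did not overlap between the tissues, which held for 1.65% of all probes. It cleared background on all 11 normal arrays and on 3 OSCC arrays, so the size of the fall is uncertain. Tyr, Tyrp1, Pmel and Slc45a2 cleared it on none, and Mitf differed by -0.68, under 2-fold.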
